A study of Mus musculus with 11 samples.

Results

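Annexins are proteins that bind negatively charged phospholipids when calcium rises. The 9 annexin genes described here are Anxa1, Anxa2, Anxa3, Anxa4, Anxa5, Anxa6, Anxa7, Anxa10 and Anxa11, out of 19938 genes with a probe set of a single gene symbol on the array. Where a gene had several such probe sets, the brightest on average across the 11 arrays stood for it, and 8 of the 9 annexins had just 1. The list was drawn up with the difference between caerulein and NaCl already known, and it leaves out the annexins Anxa8, Anxa9 and Anxa13, which are also on the array. The direction of the members is therefore a property of the choice, and their values are given as a description, with no p-value. Their limma calls are only counted, beside the share of all genes, and nothing is read from the count.

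Total RNA came from whole pancreas of wild-type C57Bl6J mice, with 1 Affymetrix array per sample and log2 expression values as deposited. The caerulein group, 6 arrays, received 9 hourly intraperitoneal injections of caerulein, a cholecystokinin analogue that overstimulates the enzyme-secreting acinar cells and so induces acute pancreatitis. The recorded dose is 50 mg/kg; caerulein is usually given in micrograms per kilogram, so the recorded unit may be an error. The NaCl group, 5 arrays, received sodium chloride (the series text counts 4 control mice). No source used here gives the sex or age of the mice, or the interval between the last injection and tissue collection. Nothing states that each array is a separate mouse, so the spread behind each p-value is that of these samples and may be technical.

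All annexins share a core of repeated domains that holds the calcium and membrane sites, and they differ in the amino-terminal tail that precedes it. The tails of annexins A1 and A2 bind S100 proteins. In acinar cells, where calcium signals drive the fusion of enzyme granules with the apical membrane, annexins have been placed on granule and plasma membranes, and in many cell types they take part in vesicle traffic, actin attachment and the resealing of torn membrane. Annexin A1 released by leukocytes is known as an anti-inflammatory ligand of formyl peptide receptors, which were not analysed here.

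RefSeq promoter windows were matched to 7 of the 9 genes, in 9 windows. The 250 bases before the annotated start are shown for Anxa2, which had the largest difference of the members, and for Anxa10 and Anxa1, since these 3 are the members whose window holds TATAAA. Sequences are from build GRCm38.p6, 5′ to 3′, and capitals mark TATAAA and the AP-1 motif TGANTCA.
Anxa2, chr9:69453433-69453682, plus strand: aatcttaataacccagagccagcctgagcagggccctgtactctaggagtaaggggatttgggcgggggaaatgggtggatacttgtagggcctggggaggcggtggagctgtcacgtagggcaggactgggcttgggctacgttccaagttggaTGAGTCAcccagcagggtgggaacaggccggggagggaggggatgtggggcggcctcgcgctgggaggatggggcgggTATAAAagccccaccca
Anxa10, chr8:62123194-62123443, minus strand: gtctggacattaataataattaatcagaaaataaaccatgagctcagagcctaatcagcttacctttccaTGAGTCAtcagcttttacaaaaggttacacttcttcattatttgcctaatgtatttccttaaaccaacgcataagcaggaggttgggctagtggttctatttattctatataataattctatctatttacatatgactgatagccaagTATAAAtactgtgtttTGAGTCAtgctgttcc
Anxa1, chr19:20390672-20390921, minus strand: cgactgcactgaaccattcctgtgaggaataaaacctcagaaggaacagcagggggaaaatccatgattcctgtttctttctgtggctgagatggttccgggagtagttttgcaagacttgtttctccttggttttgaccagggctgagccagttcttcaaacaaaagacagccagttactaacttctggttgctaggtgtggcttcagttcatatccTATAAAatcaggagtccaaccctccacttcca
On either strand, TGANTCA was present in the windows of Anxa2, once, starting 95 bases before the start, and of Anxa10, at 180 and 16 bases before it, against 6.75% of all 32851 promoter windows of this length. TATAAA stood in 3 of the 9 annexin windows, 17 bases before the start in Anxa2 and 32 bases before it in both Anxa10 and Anxa1, against 12.4% of all windows. The cyclic AMP response motif TGACGTCA was in 0 of the 9 windows (1.55% of all). The GC box GGGCGG was in 4 of 9 windows (32.7% of all), from 3 members, Anxa2, Anxa11 and Anxa7. The windows of Anxa7 overlap and share a GC box, which is counted in both. GGAATG, the TEAD motif, was in the window of Anxa1 alone (12.6% of all). A loose pattern of CC, any 6 bases and GG was in 7 of 9 windows (67.1% of all). A CArG box has only A or T as the 6 inner bases, so these matches are not calls of that motif. The loose pattern overlapped a GC box once each in Anxa11 and Anxa7, and no other motifs overlapped in these windows. A match describes letters in these windows and says nothing of binding.

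Before the members, the arrays. The first principal component separated caerulein from NaCl and carried 62.8% of the variance. The second carried 6.56% and spread the caerulein arrays, from 35.3 in replicate 1 through 7.51 and 9.23 in replicates 2 and 3 to between -19.5 and -13.9 in replicates 4, 5 and 6. The labels give no batch for these numbers, so values are also given without replicates 1 to 3 and without replicates 4 to 6 where they matter. Array medians were 5.20 to 5.25 in caerulein and 5.35 to 5.40 in NaCl. The mean log2 value of 12 acinar marker genes was 13.60 to 13.67 in caerulein and 13.90 to 13.95 in NaCl. Ctrc, Rnase1 and Zg16 were the 3 called lower, with differences of -1.39, -0.71 and -0.68. The other 9 were not called, with differences of -0.12 to 0.03. Those 9 averaged 14.09 or more in each group, near the highest value of 15.05, where changes can be compressed. In whole tissue, a change in the share of a cell type cannot be told apart from a change in RNA per cell.

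Across the 9 annexins the median difference, caerulein minus NaCl on the log2 scale, was 1.56, against -0.13 for all genes, and single differences ran from 0.63 to 3.92, or 1.55-fold to 15.1-fold. Of the members, 5 differed by at least 2-fold. All 9 were past an adjusted p of 0.05 in limma and higher in caerulein, against 20.3% of all genes, and in 8 of 9 the lowest caerulein array exceeded the highest NaCl array, against 16.7% of genes. Over all genes, 54.6% passed in either direction and 34.3% were lower, 20.6% had all caerulein arrays below all NaCl arrays, and 6.14% passed with at least a 2-fold higher level. Nothing is read from these counts, because the list was chosen on this contrast. With Anxa8, Anxa9 and Anxa13 added, the 12 annexins had a median difference of 0.88.

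**Figure D1:**
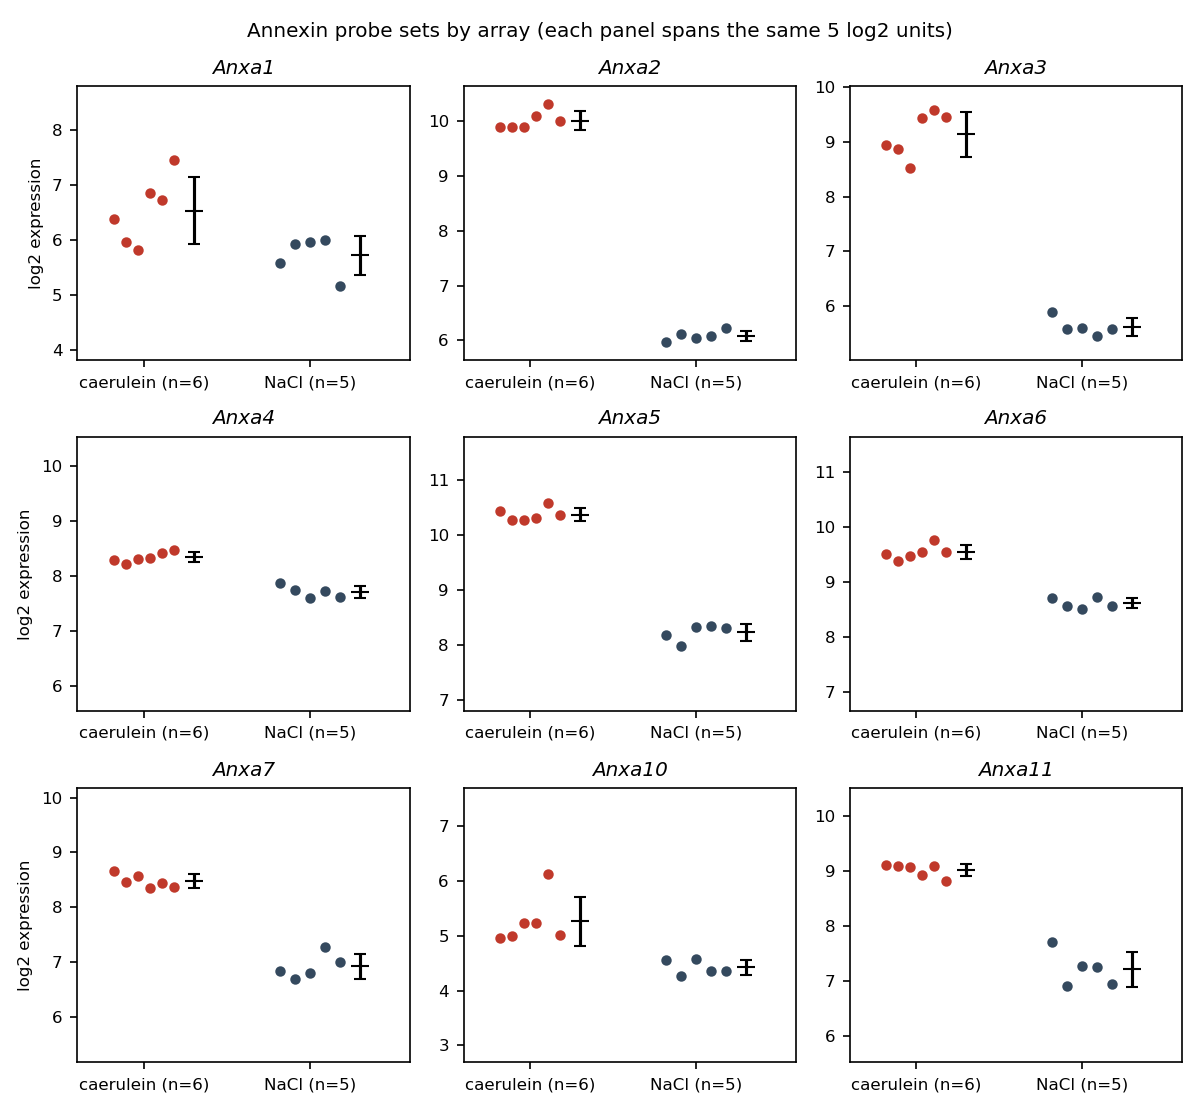
Log2 expression of the 9 annexin probe sets in each caerulein array (red, left) and each NaCl array (dark, right), with the mean and SD as a bar beside the points and replicates in number order. The groups are apart in 8 panels and overlap for Anxa1.

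Anxa2 encodes the annexin that pairs with S100a10 at the plasma membrane and links it to actin. Its log2 expression in caerulein was 9.88 at the lowest, 9.95 at the median and 10.30 at the highest, against 5.97, 6.12, 6.04, 6.08 and 6.22 in NaCl. The groups were far apart, with the lowest caerulein array 3.66 above the highest NaCl array. The means were 10.01 ± 0.16 in caerulein and 6.08 ± 0.093 in NaCl (SD, n = 6 and 5), a difference of 3.92 (SE 0.085) or 15.1-fold, the 16th largest of all genes.

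Anxa3, known from neutrophils, endothelium and epithelial cells, had 8.53, 9.19 and 9.57 as the lowest, median and highest caerulein values, against 5.89, 5.58, 5.60, 5.46 and 5.58 in NaCl. The difference was 3.51 (SE 0.17), or 11.4-fold, and ranked 29th among all genes. No NaCl array came near the caerulein arrays, but the caerulein arrays spread over 1.04 log2 units, and replicates 4, 5 and 6 held the 3 highest values (9.43, 9.57 and 9.45). Without replicates 1 to 3 the difference was 3.86, and without replicates 4 to 6 it was 3.16.

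Anxa5 encodes the abundant annexin used as a probe for exposed phosphatidylserine. Its values in caerulein were 10.27, 10.34 and 10.59 (lowest, median, highest), against 8.18, 7.99, 8.33, 8.34 and 8.31 in NaCl. The caerulein arrays lay within 0.33 of each other, and the gap between the groups was 1.93. The difference was 2.15 (SE 0.085), or 4.43-fold.

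Anxa7 and Anxa11 share a long tail rich in glycine, proline and tyrosine, and both proteins bind the calcium sensor encoded by Pdcd6. Anxa11 had 8.82, 9.08 and 9.11 in caerulein (lowest, median, highest), against 7.70, 6.90, 7.26, 7.24 and 6.94 in NaCl. Anxa7 had 8.35, 8.45 and 8.66 in caerulein (lowest, median, highest), against 6.84, 6.69, 6.80, 7.28 and 7.01 in NaCl. For both genes the caerulein arrays were the tighter group. The differences were 1.81 (SE 0.13, 3.51-fold) for Anxa11 and 1.56 (SE 0.10, 2.94-fold) for Anxa7.

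The other 4 members differed by less than 2-fold. Anxa6, the annexin with a doubled core, had 9.38, 9.53 and 9.77 in caerulein (lowest, median, highest), against 8.71, 8.56, 8.51, 8.72 and 8.56 in NaCl, a difference of 0.93 (SE 0.076). It is the member with a second probe set, annotated to 1 accession only. That probe set was 5.16 ± 0.074 in caerulein and 5.25 ± 0.16 in NaCl (SD, n = 6 and 5), with overlapping groups and a difference of -0.09 (SE 0.079). The mean of the 2 probe sets differed by 0.42. The difference of Anxa6 therefore rests on which probe set is read.

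Anxa4, an annexin of epithelial cells, had the smallest difference, 0.63 (SE 0.071, 1.55-fold). Its caerulein values were 8.22, 8.32 and 8.47 (lowest, median, highest), against 7.87, 7.74, 7.59, 7.73 and 7.61 in NaCl. The groups did not overlap, with a gap of 0.35.

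Anxa10, an annexin best known from gastric epithelium, had 4.96, 5.00, 5.23, 5.23, 6.12 and 5.01 in caerulein replicates 1 to 6, against 4.56, 4.26, 4.57, 4.35 and 4.36 in NaCl. Replicate 5 stood 0.86 above the caerulein mean. The difference was 0.84 (SE 0.18) over all arrays and 0.67 without that array. No detection calls were used, so whether so dim a probe set lies above background is unknown.

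Anxa1 was the member with overlapping groups. Its values were 6.38, 5.96, 5.82, 6.85, 6.73 and 7.45 in caerulein replicates 1 to 6, against 5.58, 5.92, 5.96, 5.99 and 5.16 in NaCl. Caerulein replicates 2 and 3 lay below the highest NaCl array, while replicates 1, 4, 5 and 6 lay above it. The means were 6.53 ± 0.61 in caerulein and 5.72 ± 0.35 in NaCl (SD, n = 6 and 5), a difference of 0.81 (SE 0.27) or 1.75-fold. Without caerulein replicates 1 to 3 the difference was 1.29, and without replicates 4 to 6 it was 0.33. The caerulein arrays alone thus spanned 1.63, more than the difference between the groups.

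The members did not spread alike within the caerulein group. Relative to its own caerulein mean, Anxa1 ran from -0.71 in replicate 3 to 0.92 in replicate 6 and Anxa3 from -0.60 in replicate 3 to 0.44 in replicate 5. Replicate 5 was the highest caerulein array for Anxa2, Anxa3, Anxa5, Anxa6 and Anxa10. For Anxa7 and Anxa11 the highest was replicate 1 and the lowest was replicate 4 or 6, the other end of the second principal component.

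The mean of 14 macrophage markers was higher in caerulein, 6.09 to 6.81 against 5.59 to 5.70 in NaCl. Of the 14, 7 rose and 0 fell (limma adjusted p under 0.05, median difference 0.40), against 20.3% of all genes that rose and 34.3% that fell. With an equal mean of reference genes 5 rose and 6 fell. Among the caerulein arrays the macrophage mean was 6.42, 6.10, 6.09, 6.60, 6.43 and 6.81 in replicates 1 to 6, and its order from high to low (6, 4, 5, 1, 2, 3) was that of Anxa1, although replicates 5 and 1, and 2 and 3, were nearly level in the macrophage mean. The mean of 9 fibroblast markers had a like order (6, 4, 5, 2, 3, 1), and was 6.73 to 7.42 in caerulein and 6.77 to 7.14 in NaCl. Replicates 4, 5 and 6 were also the highest for Anxa2, Anxa3, Anxa4, Anxa6, S100a6, S100a10 and S100a11. That split of the caerulein arrays is therefore not particular to Anxa1 or to macrophage markers. The complement genes C1qa, C1qb and C1qc, which mark resident macrophages, had differences of 0.13, 0.15 and -0.21 and were not past the threshold. The 7 macrophage markers that rose were Cd14 (2.31), Lyz2 (2.01), Cd68 (1.59), Itgam (1.51), Ccr2 (1.48), Fcgr1 (0.91) and Adgre1 (0.46). Of 13 neutrophil markers, 1 rose and 3 fell as deposited (7.69% and 23.1%, against 20.3% and 34.3% of all genes). After cyclic loess 2 rose and 0 fell, and with equal reference genes 0 rose and 10 fell. Leaving out single arrays gave 0 to 3 that rose and 2 to 4 that fell. The mean of the 13 neutrophil markers was 4.56 to 5.10 in caerulein and 4.73 to 4.82 in NaCl. Mmp8 was the marker that rose (0.41, limma adjusted p = 0.0249), and Camp, Ltf and Mpo were those that fell (-0.26, -0.25 and -0.23). Ly6g stood at 3.56 in caerulein and 3.67 in NaCl, Mmp8 at 4.38 and 3.97, and Ltf at 4.37 and 4.62. These values, and the mean of the 13 in every array, lay below the lowest array median of 5.20. Without detection calls, nothing is read from probe sets so dim. Of 8 duct markers, 5 rose and 2 fell (62.5% and 25.0%, against 20.3% and 34.3% of all genes), with a median difference of 0.42. Krt19 had the largest difference, 4.39. Muc1 and Onecut1 were the 2 that fell (-1.14 and -0.66, limma adjusted p = 1.2e-07 and 3.9e-05), and Sox9 was not called (0.41, limma adjusted p = 0.0598). The mean of the 8 duct markers was 7.42 to 7.71 in caerulein and 6.50 to 6.66 in NaCl. With an equal mean of reference genes 3 duct markers rose and 3 fell. The part of these cell types in the annexin values was not tested.

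**Figure D2:**
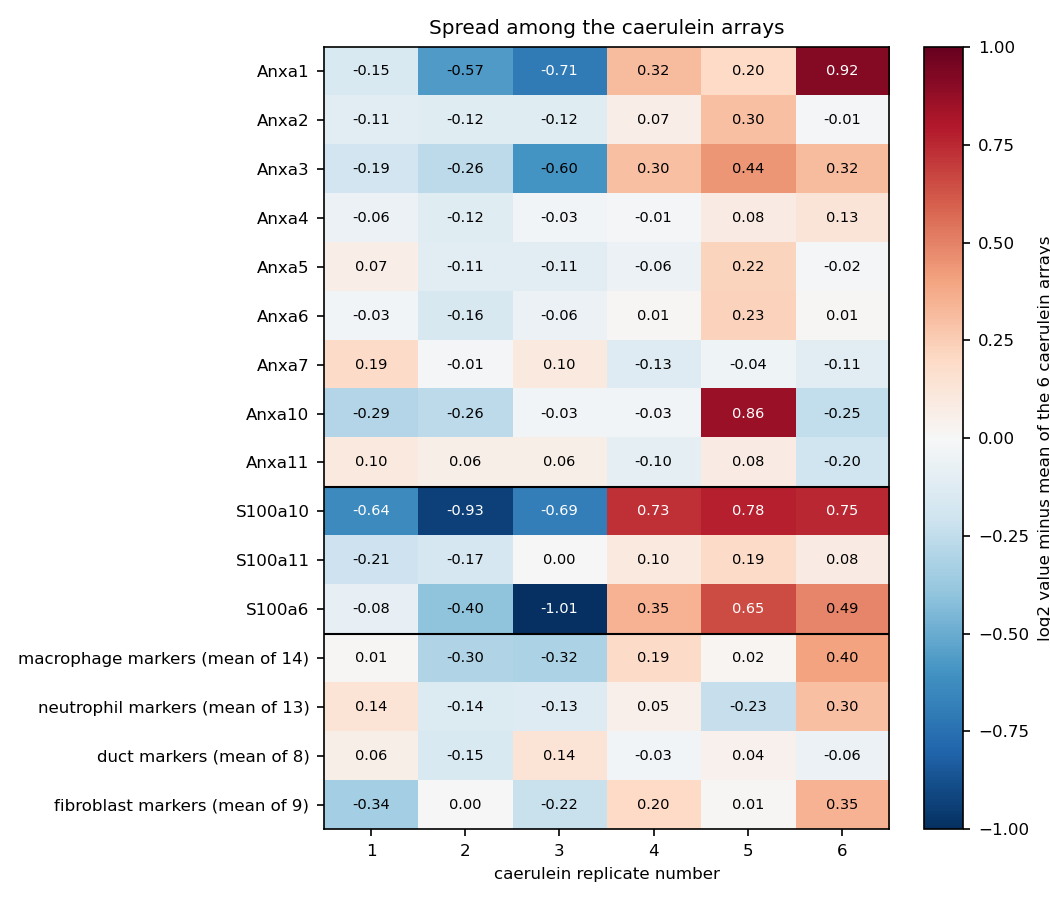
Deviation of each annexin, of 3 S100 partners and of 4 marker list means from its own mean over the 6 caerulein arrays, in log2 units, with replicates in columns. Anxa1, Anxa3, S100a10 and S100a6 are higher in replicates 4, 5 and 6, and Anxa7 is highest in replicate 1.

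The 4 other scalings changed the sizes and not the sign of the member differences, a sign that the choice of members had fixed as deposited. After shifting each array to an equal mean of 10 reference genes the median difference of all genes was -0.74, against -0.13 as deposited, and Anxa4, Anxa1, Anxa10 and Anxa6 came to 0.02, 0.20, 0.23 and 0.32. The reference genes were no neutral scale, since 6 of the 10 were themselves higher in caerulein as deposited. Relative to the median of all genes the members lay 0.76 to 4.05 higher as deposited, 0.38 to 3.88 higher after a second quantile normalisation and 0.48 to 3.76 higher after cyclic loess. Over all probe sets, 5829 rose and 9884 fell as deposited (limma; 16.4% and 27.8% of 35556, together 44.2%), against 2095 and 29399 with equal reference genes and 6319 and 5467 after cyclic loess.

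**Figure D3:**
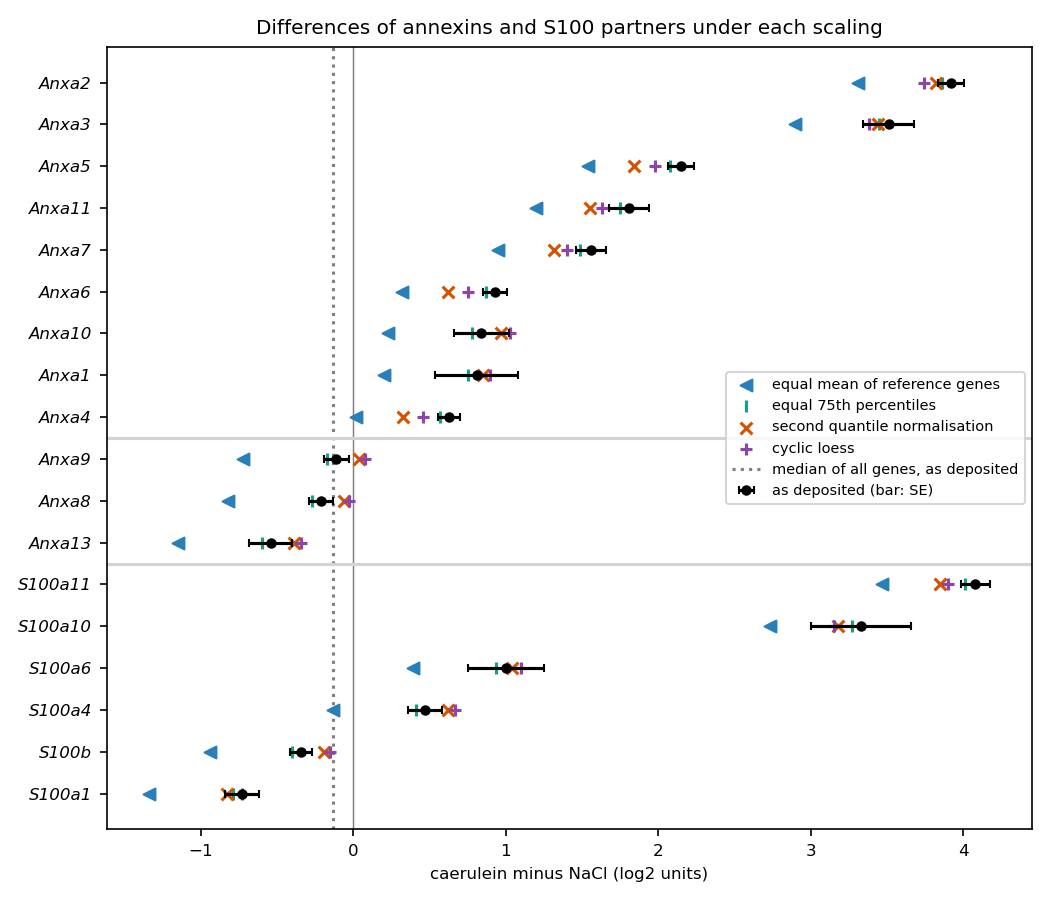
Difference between caerulein and NaCl (log2 units) for the 9 annexins, for the 3 annexins outside the list and for 6 S100 partners, as deposited with its SE and under 4 other scalings. All 9 annexin differences lie above 0 under each of these scalings, Anxa4 at 0.02 with equal reference genes, whereas Anxa8 and Anxa13 lie below 0 throughout.

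The annexins outside the list had differences below 0 as deposited. Anxa8 averaged 4.66 ± 0.085 in caerulein and 4.88 ± 0.14 in NaCl, a difference of -0.21 (SE 0.076). Anxa9 averaged 4.77 ± 0.087 in caerulein and 4.88 ± 0.16 in NaCl, a difference of -0.11 (SE 0.080). Anxa13, an annexin of gut and kidney epithelium, averaged 4.78 ± 0.14 in caerulein and 5.33 ± 0.34 in NaCl (SD, n = 6 and 5 for each), a difference of -0.54 (SE 0.14), with NaCl replicate 1 at 4.75 among the caerulein values. After cyclic loess these differences were -0.03 for Anxa8, 0.08 for Anxa9 and -0.34 for Anxa13. As these genes stayed off the list on the same contrast, they carry no test here.

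The S100 proteins that bind annexins divided by gene. Of 6 partners, 4 rose and 2 fell (limma adjusted p under 0.05), against 20.3% of all genes that rose and 34.3% that fell, and the median difference was 0.74. With an equal mean of reference genes 2 rose and 2 fell. S100a11, the partner of annexin A1, had 10.85, 11.09 and 11.25 in caerulein (lowest, median, highest), against 7.03, 6.71, 6.96, 7.12 and 7.07 in NaCl. Its difference was 4.08 (SE 0.095, 16.9-fold; limma adjusted p = 1.5e-11), and a second probe set of the gene gave 4.22.

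S100a10, the partner that forms a heterotetramer with annexin A2, had 9.22, 8.92, 9.16, 10.58, 10.64 and 10.61 in caerulein replicates 1 to 6, against 6.72, 6.36, 6.59, 6.64 and 6.31 in NaCl. The caerulein arrays fell into lower values in replicates 1 to 3 and higher ones in replicates 4 to 6, whereas Anxa2 itself varied by 0.42 over the same arrays. The S100a10 difference was 3.33 (SE 0.33, 10.1-fold; limma adjusted p = 3.8e-06).

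S100a6, calcyclin, a partner of annexin A11 and others, had 6.45, 6.13, 5.52, 6.88, 7.18 and 7.02 in caerulein replicates 1 to 6, against 5.30, 5.55, 5.68, 5.59 and 5.53 in NaCl. Replicate 3 lay among the NaCl arrays. The difference was 1.00 (SE 0.25; limma adjusted p = 0.00618). The call was lost without caerulein replicates 4 to 6 (0.50, limma adjusted p = 0.0640) and with equal reference genes (0.39, limma adjusted p = 0.103). S100a4, known from motile and immune cells, rose by 0.47 (SE 0.11; limma adjusted p = 0.00382), and was -0.13 with equal reference genes. S100a1, whose main site is muscle, fell by 0.73 (SE 0.11; limma adjusted p = 1.5e-04), and S100b fell by 0.34 (SE 0.073; limma adjusted p = 0.00252), a call that was lost after cyclic loess (-0.15, adjusted p = 0.103).

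Genes of calcium-dependent membrane repair were mostly higher. Of 14 measured, 12 rose and 0 fell, with a median difference of 0.74, against 20.3% of all genes that rose. After a second quantile normalisation 11 rose, and with equal reference genes 6 rose and 3 fell. Capn2, the large subunit of a calcium-activated protease, was 9.56, 9.70 and 9.80 in caerulein (lowest, median, highest), against 6.95, 6.87, 6.72, 6.68 and 6.84 in NaCl, a 7.31-fold difference (2.87, SE 0.071; limma adjusted p = 2.5e-11). Pdcd6ip, the ESCRT adaptor ALIX, and Pdcd6, the calcium sensor ALG-2 that binds annexins A7 and A11, rose 3.30-fold and 3.15-fold (limma adjusted p = 3.6e-09 and 7.0e-07). The ferlin gene Dysf and the muscle repair gene Trim72 were the 2 that did not pass, both at -0.03.

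In the list of phosphatidylserine scramblases and flippases, which set how much of the annexin ligand faces outward, 5 of 16 rose and 4 fell, shares of 31.2% and 25.0%, against 20.3% and 34.3% of all genes. Leaving out 1 array at a time gave 3 to 5 that rose. With equal 75th percentiles 3 rose and 4 fell, and with equal reference genes 2 rose and 13 fell. Ano6, the calcium-activated scramblase, was 8.67, 8.88 and 8.97 in caerulein (lowest, median, highest), against 6.54, 6.46, 6.44, 6.77 and 6.58 in NaCl, a 4.84-fold difference (2.27, SE 0.081; limma adjusted p = 4.4e-10). The flippase gene Atp11a, whose product moves the lipid the other way, rose 4.36-fold (limma adjusted p = 3.2e-09). The caspase-activated scramblase gene Xkr8 fell by 0.53 (SE 0.11; limma adjusted p = 0.00153). Plscr1 rose by 0.54 (limma adjusted p = 0.00113), and its second probe set gave 1.67. The Plscr1 call was lost after a second quantile normalisation (0.27, limma adjusted p = 0.0712), and the value was -0.07 with equal reference genes.

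Receptors and bridging proteins for exposed phosphatidylserine gave 4 of 11 that rose (36.4%, against 20.3% of all genes) and 2 that fell (18.2%, against 34.3%), or 3 and 7 with equal reference genes and 4 and 5 with equal 75th percentiles. Leaving out 1 array at a time gave 1 to 2 that fell. Mfge8, a bridge between phosphatidylserine and integrins, rose by 1.30 (SE 0.13), Tyro3, a receptor kinase, by 1.18 (SE 0.12), and Pros1, its ligand, by 1.10 (SE 0.10; limma adjusted p = 3.4e-06, 5.4e-06 and 1.8e-06). Gas6, the other ligand of these kinases, fell by 0.43 (SE 0.082; limma adjusted p = 9.3e-04).

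The plasmin system, which acts on cell-surface annexin A2, had 1 of 5 genes that rose (20.0%, against 20.3% of all genes) and 2 of 5 that fell (against 34.3% of all genes), or 3 and 1 after cyclic loess and 1 and 4 with equal reference genes. Plaur, the urokinase receptor, was 7.41, 7.92 and 8.11 in caerulein (lowest, median, highest), against 5.89, 5.56, 5.92, 5.69 and 5.81 in NaCl, a 4.13-fold difference (2.05, SE 0.14; limma adjusted p = 1.0e-07). Serpinf2, the plasmin inhibitor, fell by 0.56 (SE 0.073; limma adjusted p = 4.8e-05). Plg, plasminogen, stood at the threshold (-0.28, limma adjusted p = 0.0497), and the call was lost in most repeats without a single array, for example without NaCl replicate 2 (-0.21, limma adjusted p = 0.122).

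Phospholipase A2 and eicosanoid genes, whose enzymes annexins were first described as inhibiting, gave 5 of 11 that rose (45.5%, against 20.3% of all genes) and 4 that fell (36.4%, against 34.3%), and all differences lay between -0.40 and 0.54. Leaving out 1 array at a time gave 3 to 5 that rose and 2 to 5 that fell, and without caerulein replicates 4 to 6 the calls dropped to 1 that rose and 2 that fell. With equal reference genes 0 rose and 9 fell, and after cyclic loess 5 rose and 1 fell. Alox5ap, the 5-lipoxygenase activating protein gene, rose by 0.54 (limma adjusted p = 0.00232), and Pla2g4a, the cytosolic phospholipase A2 gene, by 0.38 (limma adjusted p = 0.00992). Both were below 0 with equal reference genes, at -0.07 and -0.23, and the Pla2g4a call was lost without caerulein replicates 4 to 6 (0.37, limma adjusted p = 0.0695). Ptges, prostaglandin E synthase, fell by 0.40 (limma adjusted p = 0.00506), a call lost after cyclic loess (-0.22, adjusted p = 0.0995).

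The C2-domain proteins, an unrelated family of calcium and phospholipid binders, had 4 of 26 genes that rose (15.4%, against 20.3% of all genes) and 11 that fell (42.3%, against 34.3%), with a median difference of -0.21. The number that fell was 4 after cyclic loess and 23 with equal reference genes. Of the genes that fell, Cpne4, Cpne5, Cpne9, Syt1 and Syt2 averaged below the lowest array median of 5.20 in caerulein. Cpne7, Syt3, Syt8, Syt13, Syt15 and Syt16 averaged above it. Among those that rose were Esyt1 and Esyt2, which tether the endoplasmic reticulum to the plasma membrane, at 4.16-fold and 2.30-fold, and Syt12, a synaptotagmin, at 2.18-fold (limma adjusted p = 4.5e-08, 5.2e-08 and 5.2e-06). Of those that fell, chosen after their values were seen, the copine gene Cpne7 fell by 0.51 (SE 0.074; limma adjusted p = 1.2e-04), and the other 10 fell by 0.23 to 0.44.

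**Figure D4:**
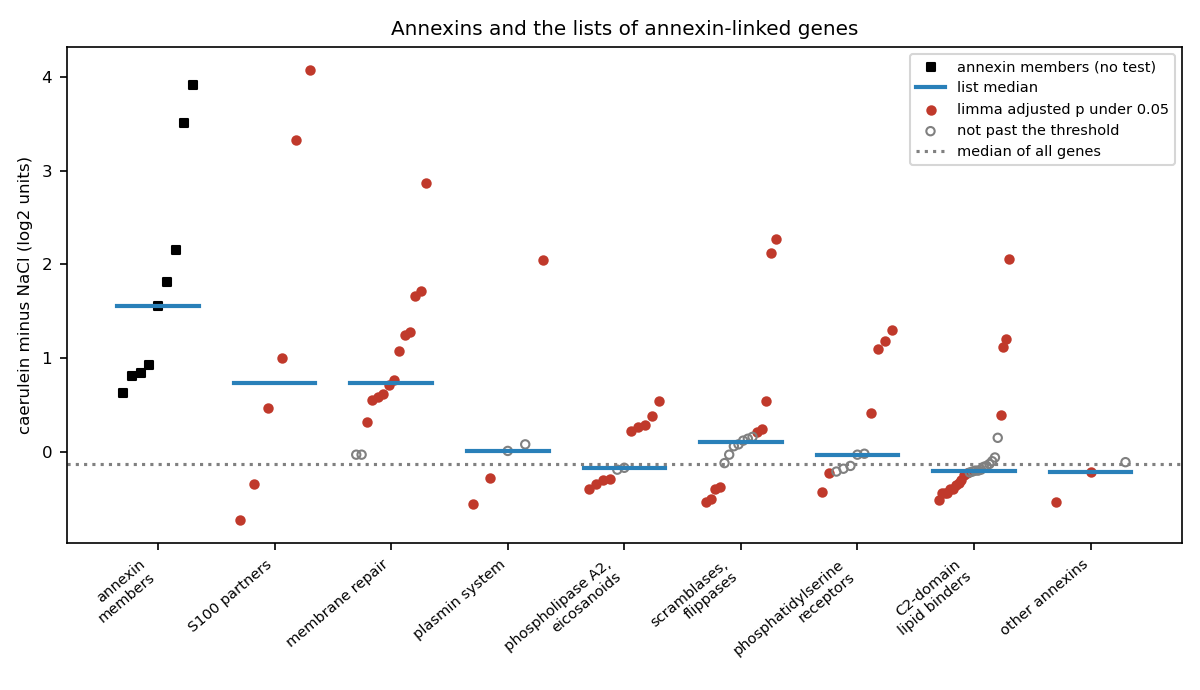
Difference between caerulein and NaCl (log2 units) for each gene of the annexin list and of 8 lists of annexin-linked genes, with list medians as bars and the median of all genes as a dotted line. The annexin squares lie between 0.63 and 3.92 and are not marked by the limma threshold. In the membrane repair list 12 of 14 genes passed the threshold upward.

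Likeness to other genes was measured as the root mean square distance between profiles over the 11 arrays, each profile taken relative to its own NaCl mean, among 18284 other genes. It gathers genes with a like difference between the groups, so it describes and tests nothing. The gene nearest to Anxa2 was S100a11 (0.174), followed by the keratin gene Krt18 (0.198) and the stress-induced Trp53inp1 (0.270). Anxa3 was nearest to the amino acid transporter gene Slc38a1 (0.232), the immediate-early gene Ier3 (0.242) and the fatty acid elongase gene Elovl7 (0.267). Anxa5 was nearest to Tax1bp3 (0.0773), the calmodulin gene Calm2 (0.102) and Rap1b (0.108). Anxa7 was nearest to Reps1 (0.0996), Csnk1d (0.111) and Rc3h1 (0.124). Anxa11 was nearest to Smg5 (0.138), the integrin gene Itgb1 (0.143) and the chaperone gene Hspa4l (0.150).

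For Anxa4 the nearest genes were Fpgs (0.0416), Qars (0.0584) and the cyclophilin gene Ppia (0.0602), and for Anxa6 they were the clathrin adaptor gene Ap2m1 (0.0614), Prkcsh (0.0666) and Arhgap17 (0.0683). Anxa1 was nearest to Fstl1 (0.256), the leukocyte chemokine receptor gene Ccr1 (0.269) and Zfp991 (0.271), and Anxa10 to Tgfbr2 (0.203), Car9 (0.203) and Nectin2 (0.207). Among the annexins themselves the closest profiles were those of Anxa4 and Anxa6 (0.234), Anxa6 and Anxa10 (0.252) and Anxa7 and Anxa11 (0.305). Anxa2 and Anxa3, the pair with the largest differences, lay 0.387 apart.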

How the data were processed

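Values are on the log2 scale as the authors deposited them, for 35556 probe sets, and span 1.95 to 15.05; per the submitters' processing notes RMA, oligo and limma were used, with no versions given. RMA usually brings arrays to a common distribution and can compress changes at both ends. The deposited array medians still differed by group, at 5.20 to 5.25 in caerulein and 5.35 to 5.40 in NaCl. No pair of the 11 arrays was identical; no detection calls, scan dates or batches were used.

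Probe sets were named from the platform annotation: 21789 had 1 symbol, 1621 several and 12146 none. Symbols were checked by Entrez identifier against a RefSeq table (GRCm38.p6): 21698 matched, 0 were renamed. The number of arrays limits the precision. No genome build of the array is given in the sources used here.

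The 2 groups were fitted with limma 3.58.1 (R 4.3.3; lmFit and eBayes, two-sided, no covariates), with Benjamini-Hochberg adjustment over all probe sets and a threshold of 0.05. Differences are caerulein minus NaCl. The fit was tested on simulated data. The members and lists were chosen with earlier results of these data known. All annexins, all S100 partners, and from the other lists the 3 largest called differences plus the largest against the majority were named. Macrophage, neutrophil and duct markers named singly were chosen after their values were seen. Further marker lists gave as deposited, with the range over the 5 scalings in brackets: T cell 0 higher and 5 lower of 7 (0, and 1 to 7), B cell 0 and 2 of 5 (0, and 0 to 5), endothelial 2 and 1 of 8 (0 to 3, and 1 to 6), fibroblast 3 and 1 of 9 (0 to 3, and 1 to 6), islet 0 and 2 of 7 (0, and 0 to 5), mesothelial 0 and 0 of 5 (0 to 1, and 0 to 5), acinar 0 and 3 of 12 (0, and 3 to 12). Figures were drawn with matplotlib 3.10.9. Alternatives were other scalings, variance settings, a filter on dim probe sets, array weights, probe set averaging, a replicate block and leaving out arrays.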

Additional observations from a re-analysis of the deposited data

Results flagged for a closer look

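Among 76 groups of 5 or 6 arrays tested for a single distant value, 4 had one, and chance flags about 1 in 20 such groups. Of the annexin members, Anxa10 stood out in caerulein replicate 5, at 6.12 against 4.96 to 5.23 in the other caerulein arrays. Outside the members, Anxa13 in NaCl replicate 1 was 4.75, against 5.36 to 5.59 in the other NaCl arrays. In caerulein replicate 1, S100a1 was 6.62 against 6.12 to 6.28 in the other caerulein arrays, and Xkr8 was 5.50 against 5.90 to 5.98.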

How the results depend on the processing

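The median of the annexin differences, 1.56 as deposited, was 0.95 with an equal mean of reference genes, 1.40 after cyclic loess, 1.32 after a second quantile normalisation and 1.68 over 8 annexins once the dimmer 50% of probe sets, Anxa10 among them, were removed; it was 1.50 to 1.64 when single arrays were left out. The number of probe sets called, 15713, was 31494 with an equal mean of reference genes and 14148 to 14993 when single arrays were left out. Of the 92 genes in the companion lists, Anxa8, Anxa9 and Anxa13 included, 62 were called in either direction, and 54 to 59 without single arrays. Over all genes 54.6% were called, so most of such a count would be met by any genes. With an equal mean of reference genes the sign turned for Alox5ap (-0.07), Pla2g4a (-0.23), Plscr1 (-0.07) and S100a4 (-0.13). Nothing in the labels says that replicate numbers pair the arrays. Same-numbered arrays had correlations of deviations of -0.0517 to 0.0597, yet 4 of 5 caerulein arrays matched their own number best, a hint from the data only. With the replicate block, which also leaves out caerulein replicate 6 for want of a partner, the annexin median was 1.58, and 13361 probe sets and 53 list genes were called; without that array alone 14358 probe sets were called. Leaving out caerulein replicates 1 to 3 or 4 to 6, chosen after the data had been seen, gave annexin medians of 1.46 and 1.65. Of 29 named list genes, 18 kept their call and sign under every setting. The causes were not tested. No detection calls were used, so height over background is unknown for every gene. Dim ones include Anxa10, Anxa8, Anxa9, Anxa13, S100b, S100a4, Pla2g4a and Plg.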
